A study of Mus musculus with 12 samples.

Results

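The genes described are 38 that code for the parts of the heart muscle sarcomere other than myosin and titin: the thin filament, the Z-disc to which it is anchored, the M-band, and the proteins that tie, build or turn over these structures. They were chosen by name from what their products are known to do, but with earlier results of these data known. They are 38 of the 55401 genes listed in the data. By role they comprise 5 genes of the thin filament, 5 of its ends and of actin turnover, 3 of the thick filament and M-band, 14 of the Z-disc, 7 of the desmin filament, costamere and intercalated disc, and 4 assembly chaperones, kinases and ubiquitin ligases. Counts above 0 were listed for 37 of the 38, and those 37 all passed the filter on low counts.

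In the sarcomere, thin filaments of actin slide past thick filaments of myosin. Troponin and tropomyosin on the actin respond to calcium and open or close the sites that myosin binds, the Z-disc anchors and crosslinks the thin filaments at their barbed ends and holds many signalling proteins, and the M-band holds the thick filaments in register. Heart muscle makes its own forms of many of these proteins, and mutations in a large share of their genes cause human cardiomyopathy.

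Poly(A) RNA from adult mouse hearts was sequenced as nanopore direct cDNA in 12 libraries, 3 in each of 4 groups, the replicates being biological triplicates per the series' design. The genotypes were WT and Rpl3l-/- (called KO), which lacks the striated muscle paralog of the ribosomal protein gene Rpl3. The Input groups are RNA of whole heart homogenates, and the IP groups are RNA bound to ribosomes that an anti-HA antibody captured from homogenates of cycloheximide-treated hearts, WT and KO alike. The HA-tagged protein, the promoter behind it and the cells that carry it, the age and sex of the animals, and whether IP and Input libraries come from the same hearts are not given in the labels. RNA was purified by TRIzol for Input and on columns for IP, so fraction and purification cannot be told apart.

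Library totals ran from 169359 to 710868 counts, the 3 KO Input libraries being the shallowest at 169359 to 291040. Levels are given throughout as CPM, counts scaled to the library's total over the genes tested times its TMM factor. A count of 3 in a library stood for 3.92 to 17.0 CPM. The targeted gene Rpl3l went with the labels: it lay at 222 to 308 CPM in all 6 WT libraries, at 2.33 to 8.31 CPM in KO IP and at 27.0 to 68.5 CPM in KO Input. Globin genes took 17.2% of the counts in replicate 2 of WT IP and 13.8% in replicate 3 of WT Input against 1.70% to 6.97% in the other 10 libraries, and the numbers of genes called in each comparison were recomputed without those 2 libraries.

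The sarcomere genes were abundant and did not pass the test between genotypes. They took 5.53% ± 0.740 of all counts in WT Input, 5.51% ± 0.275 in KO Input, 6.13% ± 0.148 in WT IP and 6.72% ± 0.471 in KO IP (SD, n = 3 libraries each). The median member had a mean level of 462 CPM, against 45.4 CPM for the median of all 6596 genes tested. Between KO and WT, 0 of 37 were called in Input, where 0.182% of all genes were, and 0 of 37 in IP, where 0.0910% were (edgeR quasi-likelihood test, adjusted p under 0.05). Calls below are from this test on the 6596 genes unless another setting is named. Between IP and Input, 6 of 37 (16.2%) were called in WT and 14 of 37 (37.8%) in KO, against 14.0% and 16.4% of all genes tested. Here and below, shares over all genes are not matched to the members for level. With a stricter count filter, which kept 3272 genes, 24.3% of these were called in WT and 27.0% in KO. Of the 35 members kept, 4 were then higher and 6 lower in WT, and 7 higher and 7 lower in KO. Mybpc3 had the highest IP to Input ratio of the members in WT and Smyd1 in KO. Both were called higher in IP in both genotypes, as was Nrap. Lmod2 had the lowest ratio in both. The plot of levels by library shows all 37.

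**Figure D1:**
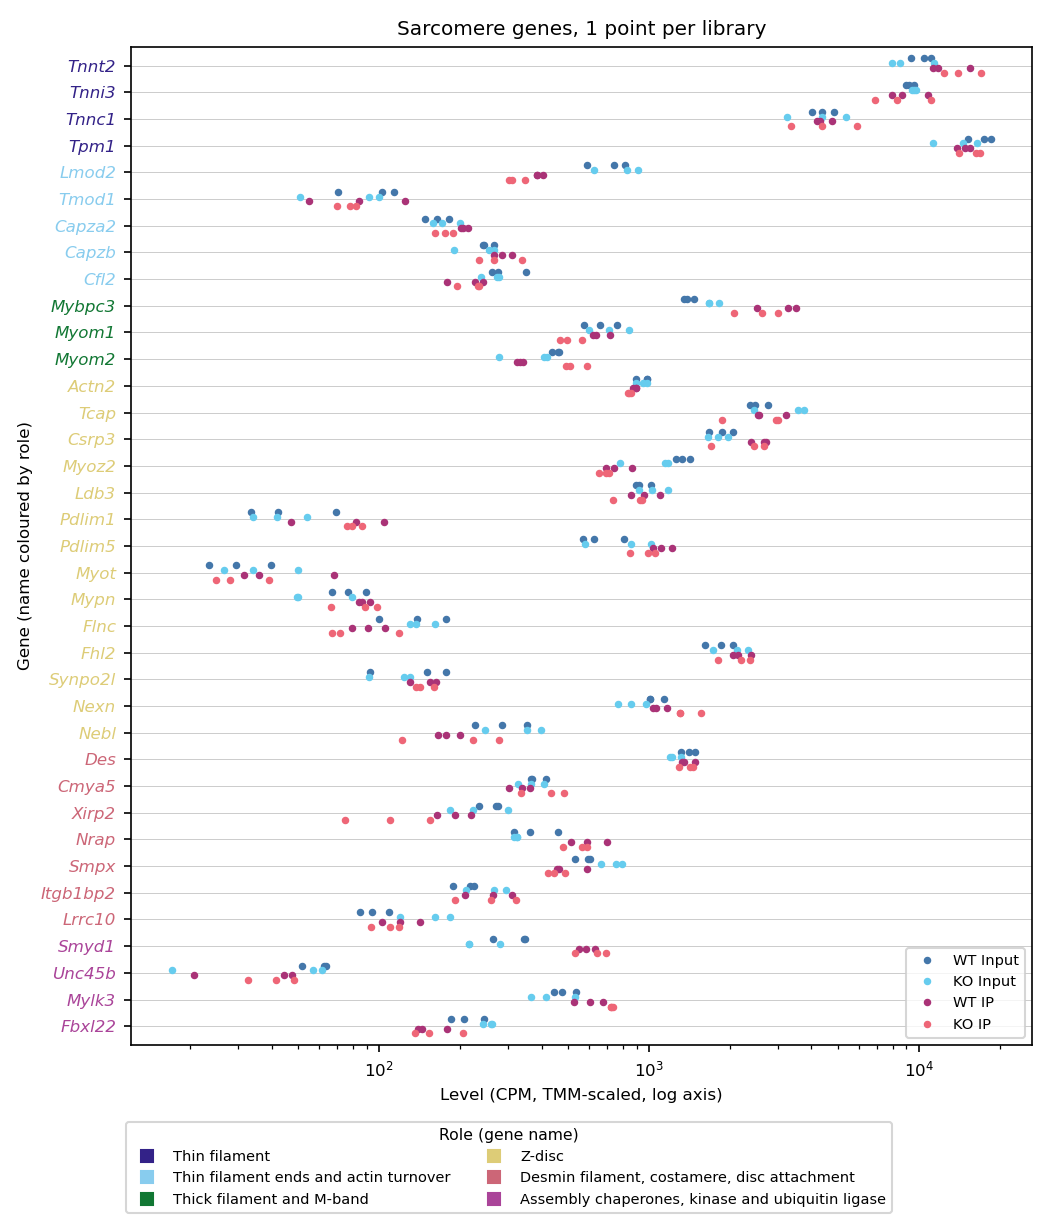
Level of each of the 37 sarcomere genes with counts, 1 point per library, on a log axis of CPM scaled by TMM library factors; points are coloured by group (3 libraries each) and gene names by role. The troponin and tropomyosin genes lie highest, Myot and Unc45b below 100 CPM, and for Lmod2 and Smyd1 the 6 IP libraries stand apart from the 6 Input libraries.

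Of the thin filament, Actc1, the cardiac alpha-actin on which the filament is built, was listed at 0 counts in all 12 libraries. A count of 0 allows up to 3 counts, or 3.92 to 17.0 CPM by library, for counting error only. The gene lies on the minus strand at chr2:114047282-114053548 (build GRCm38), inside the antisense gene A530058N18Rik, which was also at 0. The actin Actg2, known as the enteric smooth muscle form and looked up after its values were seen, held 12846 counts and lay at 1324 to 3201 CPM. The smooth muscle genes Acta2 and Myh11 lay at 79.9 to 192 CPM and 1.76 to 33.6 CPM in the same libraries. Actin genes are close copies of each other, as the last 90 coding bases before the stop codon show. They are printed 5′ to 3′ from the GENCODE M21 transcripts, with capitals where a gene differs from Actc1.
Actc1: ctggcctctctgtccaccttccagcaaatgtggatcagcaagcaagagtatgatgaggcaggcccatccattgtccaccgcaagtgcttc
Actg2: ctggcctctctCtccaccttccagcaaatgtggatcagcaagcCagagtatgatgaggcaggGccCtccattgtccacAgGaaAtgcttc
Acta1: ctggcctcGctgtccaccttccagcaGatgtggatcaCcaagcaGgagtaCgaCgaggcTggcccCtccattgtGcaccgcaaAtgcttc
Acta2: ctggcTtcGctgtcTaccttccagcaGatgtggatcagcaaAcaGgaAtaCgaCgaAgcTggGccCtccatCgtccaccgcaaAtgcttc
Over this window Actg2 differed from Actc1 at 7 bases, Acta1, the skeletal muscle alpha-actin, at 10, and Acta2, the vascular smooth muscle alpha-actin, at 15. The cytoplasmic actins Actg1 and Actb, not printed, differed at 7 and 9. Over the whole coding sequence of 1134 bases in Actc1, identity to it was 84.5% for Actg2, 86.2% for Acta1 and 82.5% for Acta2. The sources used here do not give the rule for reads that match several actin genes, and whether reads of Actc1 were counted under another actin was not tested.

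The 3 troponin subunits and tropomyosin held 59.4% to 68.6% of the members' counts in each library. Per kilobase of the longest annotated transcript they were also the 4 highest members, with Tnni3 at 10078, Tnnt2 at 9762, Tnnc1 at 6142 and Tpm1 at 5331 CPM per kilobase as means over 12 libraries. The remaining 33 members with counts lay at 11 to 2944 CPM per kilobase, with Tcap and Csrp3 next in order. Tnnt2, the subunit that binds troponin to tropomyosin (chr1:135836354-135852260), was at 10409, 11107 and 9357 CPM in WT Input, 8519, 11352 and 7955 CPM in KO Input, 11787, 15462 and 11336 CPM in WT IP and 16930.0, 12399 and 13957 CPM in KO IP. All 6 IP libraries but WT IP replicate 3 lay above all 6 Input libraries, and that one lay just under KO Input replicate 2. Tnnt2 rose in IP over Input in KO, by 1.55-fold (log2 0.64 ± 0.19, adjusted p = 0.0244), and in WT the ratio was 1.25-fold (log2 0.32 ± 0.19, adjusted p = 0.286). The KO call was lost without KO IP replicate 1, KO Input replicate 1 or KO Input replicate 3 (adjusted p 0.0572 to 0.0872).

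The other troponin subunits and tropomyosin were not called in any comparison. Tnni3, which inhibits the actin and myosin interaction at low calcium, was at 9183, 9637 and 8998 CPM in WT Input, 9722, 9576 and 9473 CPM in KO Input, 8642, 10826 and 7966 CPM in WT IP and 11091, 6853 and 8332 CPM in KO IP. Tnnc1, the subunit that binds calcium, was at 4367, 4853 and 4034 CPM in WT Input, 4387, 5385 and 3250.3 CPM in KO Input, 4306, 4763 and 4192 CPM in WT IP and 5883, 3354 and 4363 CPM in KO IP. Tpm1, the tropomyosin of heart muscle, was at 17453, 18519.9 and 15255 CPM in WT Input, 14520.5, 16444 and 11302 CPM in KO Input, 13805, 15479 and 14771 CPM in WT IP and 16279, 14149 and 16911 CPM in KO IP. For all 3 the libraries of the 4 groups overlapped in each comparison, and the KO IP libraries spread most for Tnni3 and Tnnc1. Their log2 differences between genotypes and between fractions ran from -0.28 (Tpm1, KO against WT in Input, SE 0.18) to 0.16 (Tpm1, IP against Input in KO, SE 0.18), with no adjusted p below 0.467. Tnnc1 lies inside the gene Nisch on the other strand, and Nisch held 611 counts beside the 23823 of Tnnc1. The sources used here do not say whether counting used strand.

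At the ends of the thin filament, Lmod2 was the member lowest in IP relative to Input in both genotypes. Lmod2 nucleates and lengthens actin filaments at their pointed ends in heart muscle, where it acts against the capping protein tropomodulin (chr6:24597762-24605414). It was at 743, 819 and 588 CPM in WT Input, 830.2, 624 and 909 CPM in KO Input, 386, 406 and 384 CPM in WT IP and 348, 303 and 311 CPM in KO IP. Every IP library lay under every Input library, with the 3 KO IP libraries under the 3 of WT IP. Lmod2 fell in IP 1.83-fold in WT (log2 -0.87 ± 0.16, adjusted p = 0.000521) and 2.45-fold in KO (log2 -1.29 ± 0.17, adjusted p = 5.57e-06), and both calls held in all 24 alternative settings. Its interaction, which is the log2 ratio of IP to Input in KO less that in WT, was -0.42 ± 0.23, adjusted p = 0.756. The tropomodulin gene Tmod1, the subunits Capza2 and Capzb of the protein that caps barbed ends, and Cfl2, the muscle cofilin that severs actin filaments, were not called in any comparison. Their mean levels ran from 76.8 ± 6.30 CPM (Tmod1, KO IP) to 296 ± 47.3 CPM (Cfl2, WT Input). Cfl2 was lower in all 3 IP libraries than in all 3 Input libraries in each genotype (log2 -0.46 ± 0.18, adjusted p = 0.0807 in WT and -0.26 ± 0.19, adjusted p = 0.376 in KO).

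Of the thick filament and M-band genes, Mybpc3 had the highest IP to Input ratio of all members in WT. It codes for cardiac myosin-binding protein C, which sits on the thick filament and restrains the myosin heads, and is among the genes most often mutated in hypertrophic cardiomyopathy (chr2:91118144-91136516). Mybpc3 was at 1388, 1349 and 1468 CPM in WT Input, 1672, 1672 and 1813 CPM in KO Input, 3508, 3272 and 2509 CPM in WT IP and 3001, 2619 and 2063 CPM in KO IP. The 6 IP libraries all lay above the 6 Input libraries, and KO Input lay above WT Input without overlap. It rose in IP 2.21-fold in WT (log2 1.14 ± 0.17, adjusted p = 3.15e-05) and 1.49-fold in KO (log2 0.58 ± 0.17, adjusted p = 0.0207). The difference between these ratios, -0.57 ± 0.24, was not called (adjusted p = 0.653). The KO call was lost without KO IP replicate 1, KO Input replicate 1 or KO Input replicate 2 (adjusted p 0.0625 to 0.0833) and after removing the trend with transcript length (adjusted p = 0.0528).

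The 2 myomesins, which crosslink myosin at the M-band, went apart. Myom2, the form found in adult and fast muscle (chr8:15057653-15133541), was at 464, 459 and 437 CPM in WT Input, 278, 419.9 and 409 CPM in KO Input, 342, 324 and 333 CPM in WT IP and 495, 589 and 512 CPM in KO IP. KO libraries lay below all WT libraries in Input and above all WT libraries in IP. Myom2 rose in IP over Input in KO (log2 0.54 ± 0.17, adjusted p = 0.0279), and in WT its log2 ratio was -0.45 ± 0.16, adjusted p = 0.0658. Its KO to WT ratio in IP was the highest of the members, 1.60-fold (log2 0.68 ± 0.16, adjusted p = 0.143), and so was its interaction, log2 0.98 ± 0.23, adjusted p = 0.182. Neither passed, while on all 16598 genes with counts both were called by edgeR (adjusted p = 0.0397 and 0.0345) and by DESeq2 with its own filter (adjusted p = 0.0213 and 0.0359). On the same 6596 genes DESeq2 called the KO to WT ratio (adjusted p = 0.0417) but not the interaction (adjusted p = 0.0643). Over all alternatives the adjusted p ran from 0.0213 to 0.923 for the former and from 0.0345 to 0.485 for the latter. The KO ratio of IP to Input was not called without KO IP replicate 2 or 3 or KO Input replicate 1 (adjusted p 0.0509 to 0.199), nor after removing the length trend (log2 0.32, adjusted p = 0.18).

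Myom1, the more widely made myomesin (chr17:71002633-71126856), was at 573, 658 and 762 CPM in WT Input, 598, 709 and 847 CPM in KO Input, 620.2, 639 and 715 CPM in WT IP and 497, 566 and 467 CPM in KO IP. The KO IP libraries lay under all other libraries, while the other 3 groups overlapped. Myom1 fell in IP in KO (log2 -0.48 ± 0.16, adjusted p = 0.0444). This is the least firm call: 11 of the 12 removals of a single library ended it, the exception being KO Input replicate 1, with adjusted p from 0.0515 to 0.179. DESeq2 on all genes with counts (adjusted p = 0.0541, though not on the 6596 genes) and leaving out both globin-rich libraries (adjusted p = 0.0727) ended it too, while removing the length trend took it to log2 -0.74 (adjusted p = 0.00144). KO against WT in IP gave log2 -0.36 ± 0.16, adjusted p = 0.92. Its start overlaps that of Myl12a on the other strand, which held 4837 counts beside 3339 for Myom1.

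The Z-disc genes were the largest role, with 14 members. Of these, 2 were called between IP and Input in WT (Pdlim5 higher, Myoz2 lower), beside 14.0% of all genes, and 3 in KO (Nexn higher, Flnc and Myoz2 lower), beside 16.4%. Actn2, the alpha-actinin that crosslinks actin at the Z-disc, spread little, from 846 ± 14.1 CPM in KO IP to 953 ± 48.4 CPM in WT Input, and was not called. Its 6 IP libraries nonetheless all lay under its 6 Input libraries, at log2 -0.10 and -0.16 with SE 0.14 each. Csrp3 (muscle LIM protein), Ldb3 (Cypher), Fhl2 (a LIM protein that binds titin) and Synpo2l were not called either, with log2 IP to Input ratios from -0.25 (Ldb3, KO) to 0.48 (Csrp3, WT). Csrp3 was called in WT in 10 of the 24 alternatives, both DESeq2 tests and limma-voom among them, and in KO in 2.

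Myoz2, the cardiac calsarcin that binds calcineurin and alpha-actinin (chr3:123006206-123035015), was at 1326, 1423 and 1259.5 CPM in WT Input, 1150.1, 1175 and 778 CPM in KO Input, 693, 744 and 866 CPM in WT IP and 691, 709 and 653 CPM in KO IP. The WT Input libraries lay above all others, and KO Input replicate 3 fell among the IP libraries. Myoz2 fell in IP 1.74-fold in WT (log2 -0.80 ± 0.16, adjusted p = 0.00111) and 1.52-fold in KO (log2 -0.60 ± 0.16, adjusted p = 0.0121). Without the length trend these were -0.46 (adjusted p = 0.0300) and -0.23 (adjusted p = 0.302). The KO call was also lost without KO IP replicate 3 or KO Input replicate 1 or 2 (adjusted p 0.0636 to 0.0872).

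Nexn, an actin-binding Z-disc protein mutated in dilated cardiomyopathy (chr3:152236982-152266350), was at 1012, 1139 and 1008 CPM in WT Input, 857, 978 and 767 CPM in KO Input, 1058, 1170.1 and 1032 CPM in WT IP and 1554, 1304 and 1298 CPM in KO IP. As for Myom2, the KO libraries were the lowest of the Input libraries and the highest of the IP libraries. Nexn rose in IP in KO 1.59-fold (log2 0.67 ± 0.15, adjusted p = 0.00323), a call kept in all 24 alternatives, against log2 0.04 ± 0.15, adjusted p = 0.88 in WT. The interaction of 0.63 ± 0.21 was not called (adjusted p = 0.529).

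Pdlim5, a PDZ and LIM protein that scaffolds kinases at the Z-disc (chr3:142239590-142395696), was at 805, 569.7 and 628 CPM in WT Input, 861, 582 and 1017 CPM in KO Input, 1215, 1110.1 and 1032 CPM in WT IP and 854, 1052 and 989 CPM in KO IP. The WT groups stood apart and the KO groups overlapped. It rose in IP in WT 1.68-fold (log2 0.74 ± 0.18, adjusted p = 0.00597), with log2 0.25 ± 0.18, adjusted p = 0.39 in KO. Its WT call was lost without WT Input replicate 2 (adjusted p = 0.0550) and without both globin-rich libraries (adjusted p = 0.0667). The related Pdlim1 was scarcer, at 42.4, 69.0 and 33.6 CPM in WT Input, 41.9, 53.9 and 34.1 CPM in KO Input, 47.4, 82.2 and 104 CPM in WT IP and 79.3, 75.9 and 86.4 CPM in KO IP. Its log2 IP to Input ratio in KO, 0.86 ± 0.35, was the second highest of the members there but was not called (adjusted p = 0.0926).

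Flnc, the muscle filamin that crosslinks actin at the Z-disc and the cell membrane (chr6:29433256-29461883), was at 99.7, 178 and 138 CPM in WT Input, 137, 162 and 131 CPM in KO Input, 105, 90.8 and 79.2 CPM in WT IP and 119, 66.7 and 71.5 CPM in KO IP. In KO all IP libraries lay under all Input libraries, and in WT the groups overlapped. Flnc fell in IP in KO (log2 -0.79 ± 0.26, adjusted p = 0.0382), and the log2 ratio in WT was -0.59 ± 0.24, adjusted p = 0.105. The call was lost without WT IP replicate 1, KO IP replicate 2 or 3 or any 1 KO Input library (adjusted p 0.0523 to 0.168), without both globin-rich libraries (adjusted p = 0.0605) and with DESeq2 (adjusted p = 0.117 on all genes with counts and 0.0721 on the 6596). Nebl, the nebulette that links the thin filament to the Z-disc, was at 227, 286 and 353 CPM in WT Input, 248, 354 and 398 CPM in KO Input, 166, 176 and 199 CPM in WT IP and 121, 279 and 223 CPM in KO IP. Every WT IP library lay under every WT Input library. Its log2 ratios, -0.67 ± 0.23, adjusted p = 0.0567 in WT and -0.64 ± 0.24, adjusted p = 0.0694 in KO, missed the threshold, and of the 24 alternatives 8 called the former and 4 the latter.

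The remaining Z-disc members with an extreme value were not called in any comparison. Tcap, the telethonin that caps titin at the Z-disc, was at 2465, 2767 and 2371 CPM in WT Input, 2445, 3752 and 3557 CPM in KO Input, 2552, 3228 and 2530.2 CPM in WT IP and 3010.3, 1860.2 and 2959 CPM in KO IP. Mypn, the myopalladin that binds alpha-actinin and nebulin family proteins, was at 89.7, 76.4 and 67.2 CPM in WT Input, 49.5, 50.1 and 79.6 CPM in KO Input, 84.4, 92.5 and 86.3 CPM in WT IP and 88.7, 98.1 and 66.5 CPM in KO IP. Myot, the myotilin that bundles actin, was at 39.9, 29.6 and 23.5 CPM in WT Input, 26.7, 50.1 and 34.1 CPM in KO Input, 68.1, 36.0 and 31.7 CPM in WT IP and 28.0, 39.2 and 24.9 CPM in KO IP. In all 3 the libraries of KO and WT overlapped in each fraction, and for Myot WT IP replicate 1 stood highest. Myot, Pdlim1, Tmod1 and Unc45b were near the depth limit, each with a library of 3 to 9 counts.

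Among the genes of the desmin filament, costamere and intercalated disc, Nrap rose in IP in both genotypes. Nrap, the nebulin-related anchoring protein of the intercalated disc that takes part in myofibril assembly (chr19:56320035-56390037), was at 361, 461 and 316 CPM in WT Input, 316, 324 and 324 CPM in KO Input, 591, 516 and 701 CPM in WT IP and 590.4, 565 and 480.4 CPM in KO IP. All 6 IP libraries lay above all 6 Input libraries. The ratio was 1.58-fold in WT (log2 0.66 ± 0.17, adjusted p = 0.0083) and 1.70-fold in KO (log2 0.76 ± 0.18, adjusted p = 0.0036). In WT the call was lost without WT IP replicate 3 or WT Input replicate 1 or 3 (adjusted p 0.0549 to 0.0672) and after removing the length trend (adjusted p = 0.0590). Desmin itself (Des), the intermediate filament that ties Z-discs together, and Itgb1bp2 (melusin), a muscle protein that binds integrin, were not called in any comparison, with log2 IP to Input ratios from -0.02 to 0.31.

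Xirp2, the actin-binding protein xin beta of the intercalated disc (chr2:67446002-67526614), was at 234, 271 and 275 CPM in WT Input, 183, 223 and 301 CPM in KO Input, 191, 219 and 164 CPM in WT IP and 74.7, 154 and 109.7 CPM in KO IP. The KO IP libraries were the lowest of all 12. Xirp2 fell in IP in KO 2.0-fold (log2 -1.0 ± 0.24, adjusted p = 0.0041), a call kept in all 24 alternatives, and its log2 ratio in WT was -0.44 ± 0.21, adjusted p = 0.176. It had the lowest KO to WT ratio of the members in IP, log2 -0.72 ± 0.22, adjusted p = 0.571. Smpx, a small costamere protein encoded on the X chromosome (chrX:157698910-157752591), was at 531, 604 and 594 CPM in WT Input, 792, 663 and 756 CPM in KO Input, 456, 588 and 465 CPM in WT IP and 422, 487 and 444 CPM in KO IP. KO Input lay above every other library. Smpx fell in IP in KO (log2 -0.70 ± 0.16, adjusted p = 0.00239), but not after removing the length trend (log2 -0.30, adjusted p = 0.211).

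Lrrc10, a leucine-rich repeat protein of heart muscle that binds actin and alpha-actinin, was at 84.7, 109 and 94.0 CPM in WT Input, 183, 162 and 119 CPM in KO Input, 102, 142 and 119.7 CPM in WT IP and 109.7, 119 and 93.1 CPM in KO IP. KO Input stood above WT Input without overlap, while the IP groups overlapped. Its KO to WT ratio in Input was the highest of the members, log2 0.71 ± 0.23, adjusted p = 0.454, and its interaction the lowest, log2 -0.88 ± 0.31, adjusted p = 0.534. Cmya5 (myospryn), which binds desmin and alpha-actinin at the costamere, was at 366, 367 and 416 CPM in WT Input, 366, 327 and 409 CPM in KO Input, 363, 303 and 339.8 CPM in WT IP and 336, 484 and 435 CPM in KO IP. Its groups overlapped between genotypes in both fractions.

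Of the 4 genes that build and regulate the sarcomere, Smyd1 had the highest IP to Input ratio of all members in KO. Smyd1 is a muscle methyltransferase that helps myosin fold and assemble with the chaperone Unc45b (chr6:71213940-71322233). It was at 346, 345 and 265 CPM in WT Input, 282, 216 and 216 CPM in KO Input, 586, 630.5 and 549 CPM in WT IP and 532, 693 and 639.9 CPM in KO IP. All IP libraries lay above all Input libraries, with a gap from 346 to 532 CPM between them. Smyd1 rose in IP 1.84-fold in WT (log2 0.88 ± 0.16, adjusted p = 0.000548) and 2.61-fold in KO (log2 1.38 ± 0.18, adjusted p = 4.27e-06), both kept in all 24 alternatives. Its interaction was 0.51 ± 0.24 (adjusted p = 0.711). The gene Krcc1 lies within Smyd1 on the other strand and held 379 counts beside 2745. Unc45b was too scarce to place, with mean levels of 37.5 ± 14.8 CPM in WT IP to 59.3 ± 6.55 CPM in WT Input, and was not called.

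Mylk3, the cardiac kinase of the regulatory myosin light chain (chr8:85324303-85386345), was at 476, 538 and 447 CPM in WT Input, 366, 532 and 415 CPM in KO Input, 605, 678 and 528 CPM in WT IP and 723, 722 and 733 CPM in KO IP. The KO IP libraries lay close together above all others. Mylk3 rose in IP in KO 1.66-fold (log2 0.73 ± 0.16, adjusted p = 0.00296), a call kept in all 24 alternatives, with log2 0.31 ± 0.16, adjusted p = 0.209 in WT. Fbxl22, an F-box protein of a ubiquitin ligase at the Z-disc that acts on alpha-actinin and filamin C (chr9:66508459-66514593), was at 184, 207 and 245 CPM in WT Input, 259, 243 and 261 CPM in KO Input, 139, 178 and 144 CPM in WT IP and 205, 136 and 153 CPM in KO IP. IP lay under Input without overlap in each genotype. Fbxl22 fell in IP in KO (log2 -0.64 ± 0.20, adjusted p = 0.0256) and was at log2 -0.46 ± 0.19, adjusted p = 0.113 in WT. The KO call was lost without KO IP replicate 2 or 3 or any 1 KO Input library (adjusted p 0.0565 to 0.137) and with DESeq2 on all genes with counts (adjusted p = 0.0611), though not on the 6596 genes.

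As a list, the members differed between IP and Input in both directions. In WT 4 were called higher (10.8%, against 5.37% of all genes) and 2 lower (5.41%, against 8.67%), and in KO 7 were called higher and 7 lower (18.9% each, against 6.64% and 9.78%). The median log2 IP to Input ratio over the 37 was 0.04 in WT and 0.01 in KO, beside 0.02 and 0.01 over all genes. IP libraries lay without overlap above Input libraries in 9 members in WT and 9 in KO (24.3% each, against 16.4% and 15.2% of all genes) and below them in 10 and 10 (27.0% each, against 18.2% and 15.6%). Scaling by library totals (over the genes tested) without TMM factors shifted the all-gene median upward by 0.08 in WT and 0.15 in KO. It gave 5 members higher and 2 lower in WT and 7 higher and 3 lower in KO. Of all genes, 12.5% in WT and 15.9% in KO were then called. The share of these calls that were higher went from 38.2% to 46.7% in WT and from 40.4% to 57.2% in KO. Called in both genotypes were Mybpc3, Nrap and Smyd1 on the higher side (8.11%, against 2.52% of all genes) and Lmod2 and Myoz2 on the lower side (5.41%, against 5.46%). In Mybpc3, Nrap and Smyd1 the 6 IP libraries all lay above the 6 Input libraries (8.11%, against 5.23% of all genes), and in Lmod2 and Actn2 all lay below (5.41%, against 6.97%). The ratios in the 2 genotypes, which share no library, had a Pearson correlation of 0.70 and a Spearman correlation of 0.66 over the 37 genes, beside a Pearson correlation of 0.66 over all genes. Genes are not independent replicates, and both ratios carry any bias of the fractions. The scatter of the ratios in WT and KO shows each gene. Scaling by library totals, or testing without a count filter, ended the KO calls of Fbxl22, Flnc, Myom1 and Myoz2, and fitting only the compared libraries ended those of Myom1, Myom2 and Tnnt2. Without both globin-rich libraries 5 members were called in WT and 12 in KO, against 5.98% and 13.9% of all genes.

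**Figure D2:**
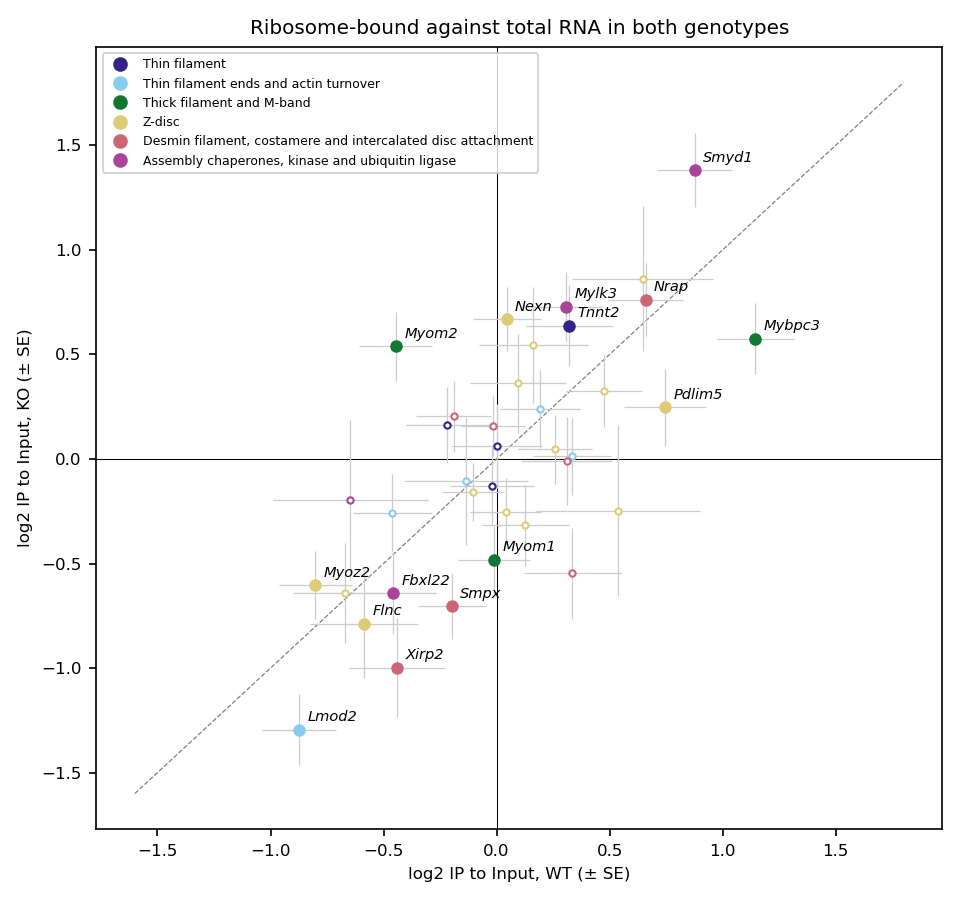
Log2 IP to Input ratio of each of the 37 sarcomere genes in WT (horizontal) and KO (vertical), with bars of 1 SE, coloured by role, the named and filled points being called in either genotype and the dashed line marking equal ratios. Smyd1, Mybpc3 and Nrap lie at the upper right and Lmod2 at the lower left, from log2 -0.87 in WT and -1.29 in KO to 0.88 and 1.38 for Smyd1.

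Between genotypes, no member passed the threshold in either fraction, with log2 differences from -0.72 (IP) to 0.71 (Input). In Input the median log2 difference between KO and WT was -0.04 over the 37 members and -0.01 over all genes, with members from -0.43 ± 0.29 (Mypn) to 0.71 ± 0.23 (Lrrc10). At an unadjusted p under 0.05 there were 4 of 37 (10.8%) in Input, against 7.11% of all genes, and 0 were called with either DESeq2 test or limma-voom. The lowest after Mypn were Smyd1 (-0.42) and Myoz2 (-0.36), and the highest after Lrrc10 were Tcap (0.36) and Smpx (0.35). In Input the KO libraries were separate from and above those of WT in 3 members (8.11%, against 6.17% of all genes) and below in 3 (8.11%, against 6.20%).

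In IP the median log2 difference was -0.05 over the members and 0.00 over all genes, with members from -0.72 ± 0.22 (Xirp2) to 0.68 ± 0.16 (Myom2). At an unadjusted p under 0.05 there were again 4 of 37 (10.8%), against 5.20% of all genes. Myom2 alone was called with DESeq2, on either set of genes, and with edgeR on all genes with counts, and 0 members with limma-voom. Of all genes, DESeq2 called 0.0422% on those with counts and 0.152% on the 6596. The shares were 0.331% for edgeR on all genes with counts and 0.106% for limma-voom. The lowest after Xirp2 were Myot (-0.55) and Myom1 (-0.36), and the highest after Myom2 were Nexn (0.35) and Cmya5 (0.33). The KO libraries were separate from and above those of WT in 3 members (8.11%, against 5.40% of all genes) and below in 5 (13.5%, against 5.44%). The median SE of the members was 0.19 in Input and 0.17 in IP on the log2 scale. On simulated counts of 6596 genes, 27% of those changed by 1 on the log2 scale between KO and WT were called in Input and 44% in IP, so a change of that size in a typical gene could be missed. The changed genes were drawn at random from all 6596, whose median level was below that of the members. The share recovered among genes at the members' levels was not computed. The plot of genotype differences shows each member in both fractions.

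**Figure D3:**
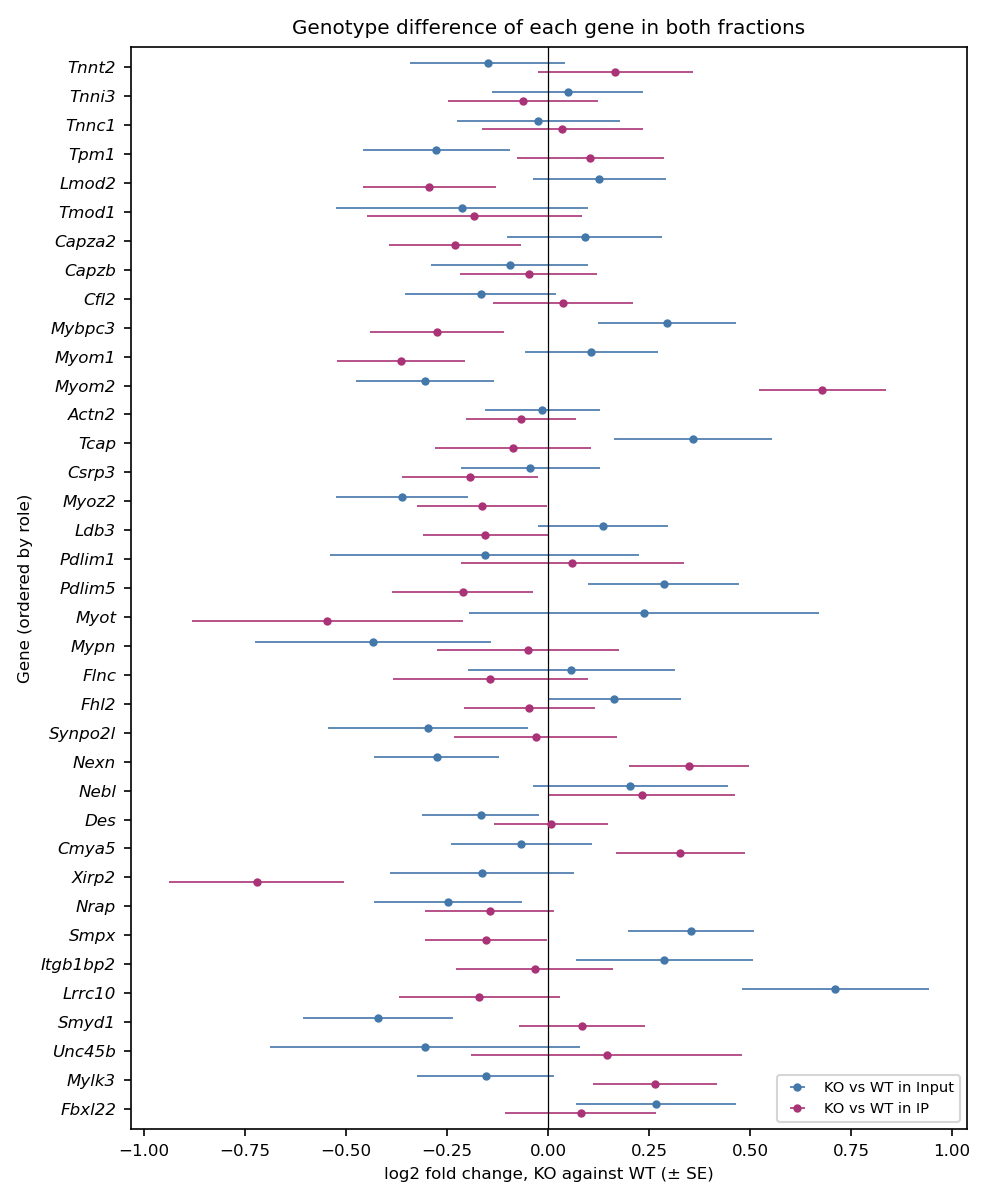
Log2 fold change of KO against WT for each of the 37 sarcomere genes in Input and in IP, with bars of 1 SE, genes ordered by role. The values lie on both sides of 0 in each role, except that the 4 chaperone, kinase and ligase genes lie above 0 in IP, and Lrrc10 in Input (0.71) and Myom2 (0.68) and Xirp2 (-0.72) in IP lie farthest out.

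The interaction was called for 0 of 37 members with edgeR, against 0.0910% of all genes. At an unadjusted p under 0.05 there were 7 (18.9%, against 7.02%). On all genes with counts 1 member, Myom2, was called by edgeR and by DESeq2, against 0.223% and 0.0361% of those genes. On the 6596 genes 0 members were called by DESeq2 or limma-voom, against 0.0758% and 0.0152%. The highest were Myom2 (0.98 ± 0.23), Nexn (0.63 ± 0.21) and Smyd1 (0.51 ± 0.24), and the lowest Lrrc10 (-0.88 ± 0.31), Myot (-0.78 ± 0.55) and Mybpc3 (-0.57 ± 0.24). Calls made in KO and not in WT, or the reverse, are therefore not shown to differ between genotypes by edgeR on the 6596 genes, and for Myom2 the outcome changed with the genes tested. For this contrast 9% of genes changed by 1 were recovered on simulated counts of 6596 genes. These too were drawn at random from all genes, and the share at the members' levels was not computed.

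The ratio of IP to Input rose with transcript length over all genes, with a Spearman correlation of 0.30 in WT and 0.34 in KO over 6591 genes. Over the 37 members it was -0.17 and 0.03. Genes with transcripts of up to 1500 bases had a median log2 ratio of -0.36 in WT and -0.41 in KO, while the 9 members of that length had 0.13 and -0.13. Above 4000 bases the medians were 0.20 and 0.26 for all genes and -0.01 and 0.20 for the 13 members. After removing the length trend 17 members were called in WT, 9 higher and 8 lower, against 11.9% of all genes. In KO 14 were called, 7 higher and 7 lower, against 13.4% of all genes. Among those called with the trend removed but not with it left in, on the same libraries and genes, were Csrp3, Nebl and Tnnc1 in both genotypes and Tcap in WT. That removal left the direction of each call as it was but took Tnnt2 in KO from 0.64 to 0.97. It ended the KO calls of Mybpc3, Myom2, Myoz2 and Smpx (adjusted p 0.0528 to 0.302) and the WT call of Nrap (adjusted p = 0.0590). These correlations are descriptions over genes of the same libraries.

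**Figure D4:**
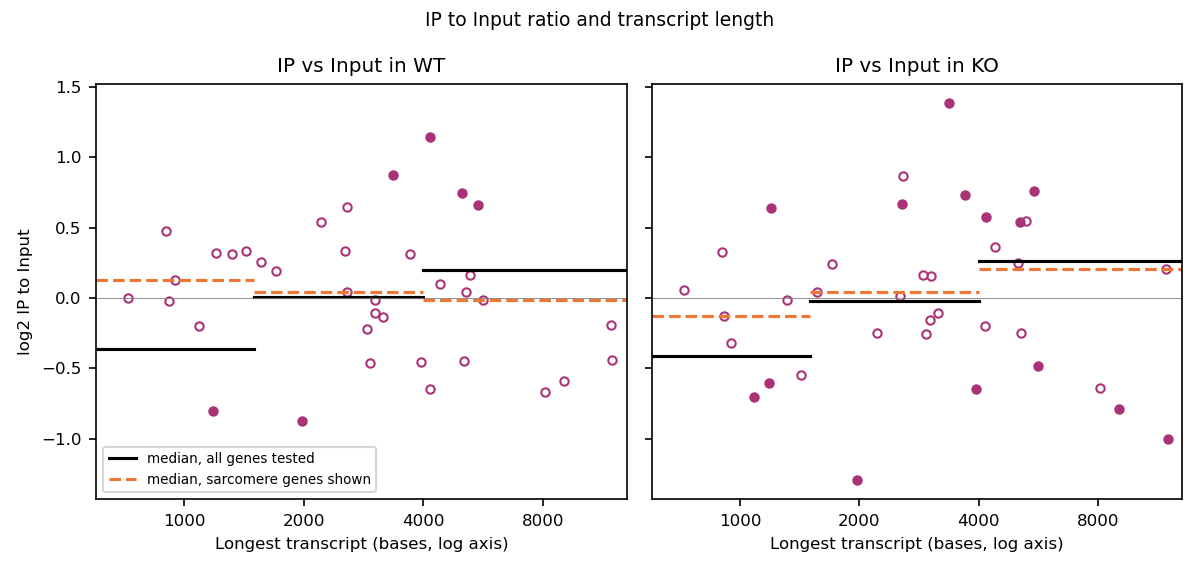
Log2 IP to Input ratio of the 37 sarcomere genes against the length of the longest annotated transcript (log axis), WT on the left and KO on the right; filled points are called, and lines are medians of all genes (solid) and of the sarcomere genes (dashed) in 3 length classes. The median of all genes rises from -0.36 to 0.20 in WT and from -0.41 to 0.26 in KO, and the dashed line starts above it in both.

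Summed levels of several cell type marker lists differed between the fractions. The cells that carry the HA tag are not given, and fraction and purification cannot be told apart. The source of these differences was not tested. Between genotypes, fewer cells of a type and less RNA per cell cannot be told apart in bulk samples. The 6 atrial cardiomyocyte markers summed to 329 to 1123 CPM in IP and 6802 to 11902 CPM in Input, and all 6 were called lower in IP in both genotypes. The 8 general cardiomyocyte markers summed to 47336 to 55413 CPM in IP and 54403 to 64203 CPM in Input, but single markers went in both directions. Their log2 IP to Input ratios ran from -1.51 to 0.57 in WT, with 1 called higher and 3 lower. In KO the range was -1.38 to 0.55, with 1 called higher and 2 lower. The 8 endothelial markers summed to 2504 to 3459 CPM in IP and 4131 to 5665 CPM in Input, but they went in both directions. Their log2 IP to Input ratios ran from -1.97 to 0.39 in WT, with 1 called lower. In KO they ran from -1.79 to 0.36, with 4 called lower. The 5 adipocyte markers, of which 1 was tested, summed to 13.7 to 54.6 CPM in IP and 123 to 541 CPM in Input. Fibroblast markers were at 2176 to 2763 CPM in IP and 1662 to 2502 CPM in Input, smooth muscle markers at 740 to 977 CPM and 683 to 869 CPM, and macrophage markers at 668 to 901 CPM and 530.2 to 944 CPM. Of the 8 fibroblast markers, 1 was called higher in IP in WT and 2 lower in KO. Skeletal muscle markers lay at 19.0 to 72.3 CPM in all libraries, and erythroid genes from 16154 to 202621 CPM. No list had a marker at 0 in all 12 libraries, and the part of cell content in the ratios of the sarcomere genes was not tested. Between genotypes these sums overlapped in each fraction for all lists except the fibroblast markers in IP, which summed to 2176 to 2488 CPM in WT and 2514 to 2763 CPM in KO. The 8 fibroblast markers ran from log2 -0.61 to 0.39 in that comparison, with 0 called.

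**Figure D5:**
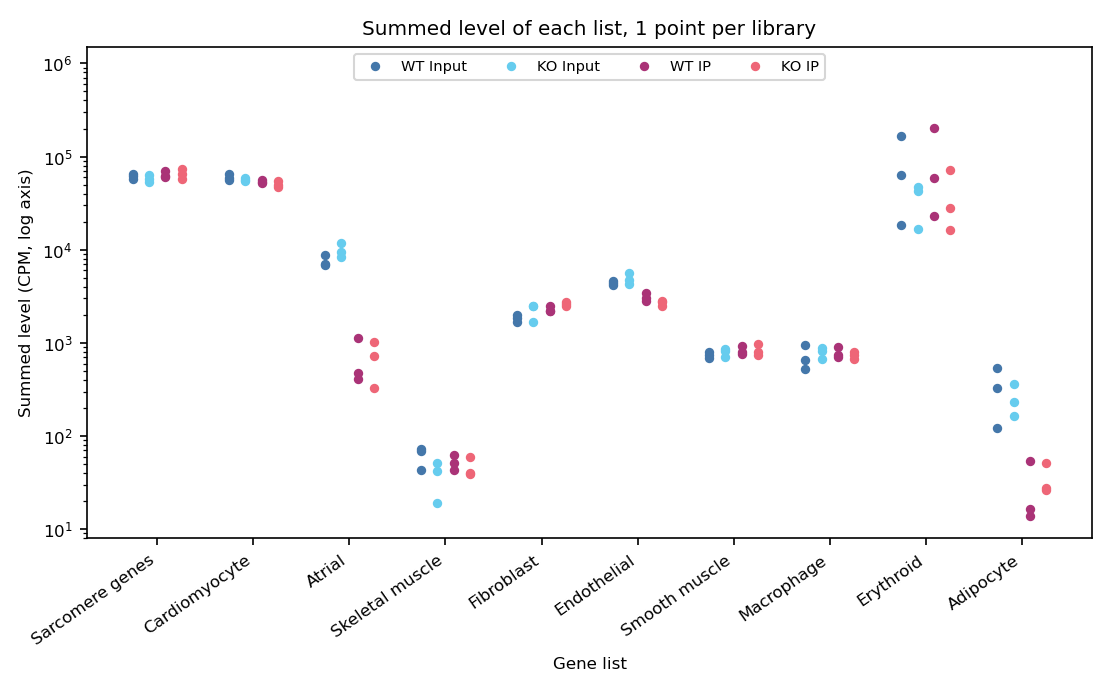
Summed level in CPM (log axis) of the sarcomere genes and of 9 lists of cell type markers, 1 point per library, 4 groups of 3 libraries. The atrial markers lie at 329 to 1123 CPM in IP and 6802 to 11902 CPM in Input and the adipocyte markers are also lower in IP, while the sum of the sarcomere genes overlaps among all 4 groups.

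Other genes of the same structures were looked at from a list of 56, of which 42 were tested. In WT 3 were called higher in IP and 6 lower, against 5.37% and 8.67% of all genes. In KO 4 were called higher and 6 lower, against 6.64% and 9.78%. The atrial myosin light chains Myl4 and Myl7 and the myosin-binding Mybphl were lowest, at log2 -3.64, -3.07 and -3.24 in WT and -3.56, -3.14 and -3.29 in KO. Of the chaperones, Hspb7 was at log2 1.32 ± 0.15 in WT and 0.57 ± 0.15 in KO, and Bag3 at 0.88 ± 0.17 and 0.68 ± 0.17, all called. Ankrd1, a titin-binding stress response protein, was higher in IP in WT at log2 1.03 ± 0.20 but not in KO (log2 0.05 ± 0.21, adjusted p = 0.912). It was the only 1 of the 42 called between genotypes, KO being lower than WT at log2 -1.08 ± 0.20 in IP (adjusted p = 0.0245). Of all genes, 0.0910% were called there. In Input and for the interaction 0 of 42 were called, against 0.182% and 0.0910% of all genes.

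The start sites of the members were also read. RefSeq promoter entries (GRCm38.p6) matched 33 of the 38, and in the 250 bases before the start a CArG box, the binding site of serum response factor, stood in 6 (18.2%, against 1.62% of all 27025 genes) and a MEF2 site in 5 (15.2%, against 3.42%), on either strand. TATAAA on the coding strand stood in 1 (3.03%, against 8.94%) and CATTCC on either strand in 9 (27.3%, against 14.4%). A match is a description of the letters only. The 150 bases before the start are shown for 2 members called between IP and Input in opposite directions, with the MEF2 site in capitals: Mybpc3 at chr2:91117994-91118143 and Xirp2 at chr2:67445852-67446001, both on the plus strand.
Mybpc3: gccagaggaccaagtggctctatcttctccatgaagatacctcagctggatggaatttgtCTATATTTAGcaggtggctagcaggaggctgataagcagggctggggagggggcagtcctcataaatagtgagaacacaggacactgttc
Xirp2: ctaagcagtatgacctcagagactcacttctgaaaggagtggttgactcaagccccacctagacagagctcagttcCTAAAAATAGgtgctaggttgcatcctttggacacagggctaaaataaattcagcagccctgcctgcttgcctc
The MEF2 site thus occurred both in a member higher in IP and in one called lower in IP in KO.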

How the data were processed

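Per the labels' protocols, all 12 libraries were poly(A)-selected, made with a nanopore direct cDNA kit and run barcoded on a MinION. The authors deposited 1 whole-number count per gene and library. The submitters' processing notes name minimap2 2.14, DESeq2 1.34.0 and GRCm38, and the counting rule, its use of strand and its annotation are in none of the sources used here. Of 55401 gene IDs, 55141 matched GENCODE M21 (GRCm38) without their version, as did all 38 members (36 with it). Names, coordinates and transcript lengths come from there.

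The test was run in R 4.3.3 with edgeR 4.0.16: filterByExpr (minimum count 10, total 15) kept 6596 genes, with TMM factors and a quasi-likelihood fit of 1 mean per group over all 12 libraries (common dispersion 0.0333). The Benjamini and Hochberg adjustment ran over the 6596 genes, with a threshold of 0.05 and SE = log2 fold change over the square root of F. Fits of 3 against 3 libraries rest on this model, and counting intervals and floors cover counting error only. The fit was tested on simulated data, with 100 genes changed by 1 and 100 by 2 on the log2 scale in each comparison. Between 4 (interaction) and 13 (KO against WT in IP) unchanged genes were called there. Promoters come from RefSeq.

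The members, roles and lists were chosen with earlier results of these data known. Named with values in each library were the members called in any contrast, the 3 highest and 3 lowest per contrast, and the thin filament. Actg2, Acta2 and Myh11 beside Actc1 were chosen after their values were seen. Of 24 alternatives, 22 were planned (scaling, count filters, DESeq2 1.42.0, limma-voom with limma 3.58.1, replicate block, globin genes left out, length trend removed by loess with span 0.5, only the compared libraries, each library left out). Leaving out both globin-rich libraries together, and DESeq2 on the 6596 genes (the planned DESeq2 test and the fit without a count filter used all 16598 genes with counts), were added after seeing the data.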

Additional observations from a re-analysis of the deposited data

Results flagged for a closer look

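For Myom2 and Nexn, the KO libraries lay below all WT libraries in Input and above all WT libraries in IP. The interaction (log2 ratio of IP to Input in KO less that in WT) was 0.98 for Myom2 and 0.63 for Nexn. Neither was called by edgeR (adjusted p = 0.182 and 0.529) or by DESeq2 on the same 6596 genes (adjusted p = 0.0643 and 0.560), while that of Myom2 was called on all 16598 genes with counts by edgeR (adjusted p = 0.0345) and DESeq2 (adjusted p = 0.0359).

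Actg2, which was in none of the lists, held 12846 counts over the 12 libraries while Actc1 was listed at 0 in all of them. Actg2 rose in IP over Input in KO (log2 0.64 ± 0.19, adjusted p = 0.0228), with log2 0.20 ± 0.19 in WT (adjusted p = 0.521).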

How the results depend on the processing

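No call of a member changed direction in the 24 alternatives. Of 20 calls of a member in a comparison, 10 held in each alternative. Members called in WT between IP and Input numbered 10 with the stricter filter (30 counts in 3 libraries), where 24.3% of the genes kept were called. They numbered 17 without the length trend, against 11.9% of all genes. In KO they numbered 9 to 13 with 1 library left out, against 10.4% to 14.5% of all genes. Between genotypes in IP, and for the interaction, 1 member was called without a count filter and 1 with DESeq2 on all genes with counts, and with DESeq2 on the 6596 genes 1 in IP and 0 for the interaction, Myom2 each time. Of all genes, 0.331% in IP and 0.223% for the interaction were called without a filter. With DESeq2 these shares were 0.0422% and 0.0361% on all genes with counts, and 0.152% and 0.0758% on the 6596. Medians near 0 changed sign: between genotypes in Input from -0.044 to 0.015 with library totals and 0.013 without WT Input replicate 2, and between IP and Input in WT from 0.040 to -0.013 with the stricter filter, without both globin-rich libraries or without WT Input replicate 1. That of the interaction, 0.029, went to -0.030 with the replicate block and -0.023 with limma-voom. The median log2 difference of the members moved with scaling by library totals to 0.064 between genotypes in IP and to 0.123 (WT) and 0.151 (KO) between IP and Input. It moved without a count filter to 0.112 (WT) and 0.127 (KO), and without the length trend to 0.109 in KO and -0.041 for the interaction. Without both globin-rich libraries the interaction median was -0.055. With 1 library left out it ran from -0.112 to 0.025, and the KO median of IP to Input from -0.040 to 0.0997.

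The labels do not state that same-numbered libraries share a heart, so replicate numbers were not taken to pair libraries. Same-numbered libraries of different groups had correlations of -0.192 to 0.127 in their deviations, both ends being WT IP against KO IP. Between IP and Input within a genotype these correlations ran from -0.09 to 0.01. With a replicate block 7 members were called in WT and 14 in KO between IP and Input, against 13.0% and 15.3% of all genes. In the other comparisons 0 members were called. Nebl was called in both genotypes with the block and Flnc in KO was not (adjusted p = 0.0505).

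Over all genes, calls between genotypes in Input went from 12 to 77 without a count filter, 5 with the stricter filter, 4 when WT Input replicate 1 was left out and 5 when KO Input replicate 3 was. In IP they went from 6 to 55 without a filter, to 10 with DESeq2 on the 6596 genes, to 2 without WT IP replicate 1, and to 3 without WT IP replicate 2, KO IP replicate 3, WT Input replicate 1 or both globin-rich libraries. Interaction calls went from 6 to 37 without a filter, to 1 with limma-voom, without WT Input replicate 1 or without both globin-rich libraries, and to 3 without WT IP replicate 3. Between IP and Input in WT, calls went from 926 to 601 without WT Input replicate 1 and 424 without both globin-rich libraries. The cause was not tested. Depth limits the KO Input libraries most, and how Actc1 reads were assigned limits every statement on actin.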
